A study of Mus musculus with 4 samples.

Results

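The annexins examined were 8 genes of the 12 annexin genes (Anxa1, Anxa2, Anxa3, Anxa4, Anxa5, Anxa6, Anxa7 and Anxa11) among 21831 genes of the expression tables. They were chosen by name, as a family that holds one of the largest rises in Cd73-negative cells (Anxa1), so the Cd73-negative difference of Anxa1 between genotypes was used in the choice and is given as a description. All 8 members had OK status in every library and entered every comparison. RNA was sequenced from retina of slc:ICR background mice at postnatal day 12, sorted into Cd73-negative (Cd73N) and Cd73-positive (Cd73P) cells, where Cd73 is a surface enzyme of rod photoreceptors and their precursors. Each fraction was taken from wild-type (WT) retina and from Ezh2-cKO retina, in which a floxed Ezh2 gene is removed by DKK3-Cre, a recombinase made in retinal progenitor cells. Normal littermates were the controls, and Ezh2 encodes the methyltransferase of the Polycomb complex PRC2. Microglia and vessel cells do not descend from retinal progenitors, so both genotypes can hold such cells with an intact Ezh2 gene. How many retinas were pooled per library at this age is not given in the sources used here.

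Annexins are proteins that bind acidic phospholipids, in most cases when calcium rises, through a folded core of annexin repeats. Their N-terminal tails differ and bind partners such as S100 proteins. They take part in vesicle traffic, in sealing of damaged membranes and in inflammation, and in neural tissue several of them are known from glia and microglia.

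There was 1 library for each of the 4 groups, so no difference given here has a replicate check and none was tested. Levels are FPKM, mapped fragments scaled to the length of the exons and to the size of the library, so that genes of unlike length can be compared. Ratios are log2 ratios of FPKM + 1, which understate differences of weakly expressed genes, and a gene was counted as higher or lower past 1.5-fold on that scale. Each standard error (SE) was computed from the deposited FPKM bounds and covers counting error within a library only. Depth inferred from these bounds lay between 1 and 1.17 times that of the Cd73N WT library.

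The labels were checked first. Nt5e, which encodes Cd73, did not exceed 0.84 FPKM in Cd73N and reached 125 (WT) and 123 FPKM in Cd73P. Ezh2 was at 14.1 FPKM in Cd73N WT and 15.9 FPKM in the Cd73N library labelled Ezh2-cKO, and at 5.38 and 3.45 FPKM in Cd73P. Its gene-level value was thus not lower in Cd73N, although such a value cannot show loss of a floxed exon, so the name Ezh2-cKO is used here for what the label says. Xist differed by genotype, with 52.2 and 240.4 FPKM in Cd73N and 46.96 and 95.6 FPKM in Cd73P, and 4 Y-linked genes summed to 26.8 and 27.9 FPKM in WT and to 0.72 and 0.50 FPKM in the libraries labelled Ezh2-cKO. The sex makeup and the genotype of these libraries cannot be told apart in any of the genotype comparisons below.

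The sequences before the transcription start are shown for 3 members with different patterns, Anxa1, Anxa2 and Anxa11. Windows were taken from RefSeq (GRCm38.p6) for 6 members, without Anxa3 and Anxa6, and each window had 1 exact match in NCBIM37 (mm9), the build of the expression tables. Only the 250 bases before the start are printed, in the direction of the gene, with capitals marking the searched motifs. These were the TATA box (TATAAA), the GC box bound by Sp1 (GGGCGG, read as CCGCCC on the other strand) and the element bound by AP-1 proteins (TGANTCA, which reads alike on both strands). The CCAAT box was searched as well. Anxa1 lies at chr19:20465162-20465411 on the minus strand, Anxa2 at chr9:69301240-69301489 on the plus strand and Anxa11 at chr14:26661391-26661640 on the plus strand.
Anxa1: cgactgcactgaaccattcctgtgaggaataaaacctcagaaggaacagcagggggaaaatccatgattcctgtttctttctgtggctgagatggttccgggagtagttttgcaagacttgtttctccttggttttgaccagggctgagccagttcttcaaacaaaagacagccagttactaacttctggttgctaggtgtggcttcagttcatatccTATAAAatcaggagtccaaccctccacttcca
Anxa2: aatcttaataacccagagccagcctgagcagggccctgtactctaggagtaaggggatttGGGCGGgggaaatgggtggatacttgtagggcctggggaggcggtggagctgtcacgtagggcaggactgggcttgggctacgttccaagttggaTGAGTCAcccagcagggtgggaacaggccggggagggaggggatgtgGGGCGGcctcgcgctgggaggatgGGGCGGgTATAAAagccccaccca
Anxa11: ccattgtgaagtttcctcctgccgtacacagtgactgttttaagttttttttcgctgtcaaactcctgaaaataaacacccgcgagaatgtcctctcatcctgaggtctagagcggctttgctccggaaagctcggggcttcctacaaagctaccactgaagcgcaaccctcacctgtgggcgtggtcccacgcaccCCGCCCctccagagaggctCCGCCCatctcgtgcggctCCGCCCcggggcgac

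The Anxa1 window held 2 CpG dinucleotides, a GC content of 46% and a TATAAA whose first base lies 32 bases before the start. Anxa2 held a TATAAA as well, 17 bases before the start, with 9 CpG, 3 GGGCGG and 1 TGAGTCA. Anxa11 had 17 CpG, a ratio of observed to expected CpG of 0.84 and 3 copies of CCGCCC, but no TATAAA. Over 32851 windows of the same length from all genes, the median was 6 CpG, with a ratio of observed to expected CpG of 0.37, against 0.15 in Anxa1. Both strands were searched. TATAAA was found in 12.4% of all windows, GGGCGG in 32.7%, TGANTCA in 6.75% and CCAAT in 33.8%. Of the 8 windows of the 6 members, CCAAT was found in none. These matches describe letters in a window and show no binding.

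Across the 4 libraries the summed FPKM of the 8 members was 55.2 in Cd73N WT, 159.9 in the Cd73N library labelled Ezh2-cKO, 16.4 in Cd73P WT and 24.4 in the Cd73P library labelled Ezh2-cKO. Anxa1 held 11% of this sum in Cd73N WT and 53.4% in the Cd73N library labelled Ezh2-cKO. Anxa7 held most of the sum in Cd73P, with 60.7% in WT and 57.7% in the library labelled Ezh2-cKO. Without Anxa1 the other 7 members summed to 49.1 and 74.5 FPKM in Cd73N and to 16.03 and 21.4 FPKM in Cd73P, so the sum was higher in the libraries labelled Ezh2-cKO also without Anxa1.

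**Figure D1:**
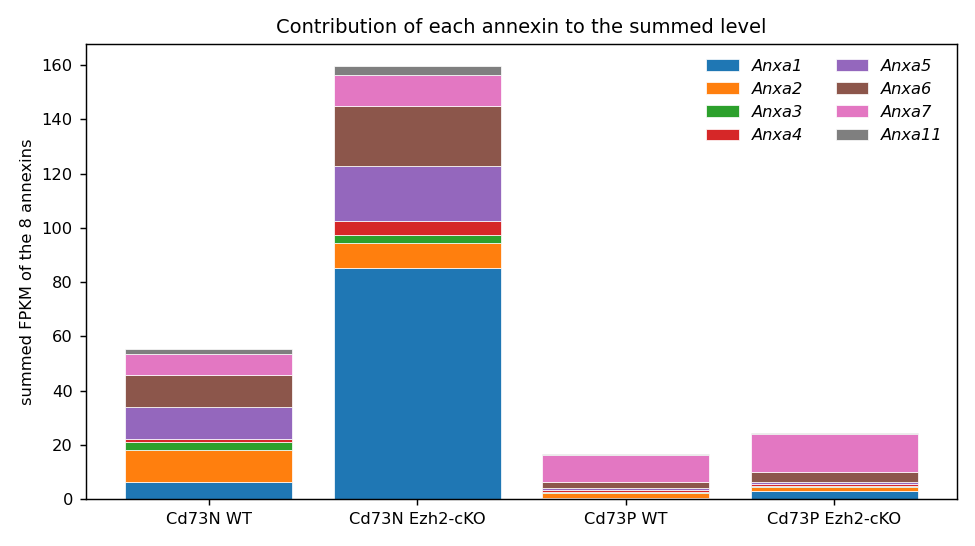
Stacked bars give the FPKM of each of the 8 annexins in each of the 4 libraries (vertical axis, summed FPKM). Anxa1 makes up 53.4% of the bar of the Cd73N library labelled Ezh2-cKO, and Anxa7 60.7% of the bar of Cd73P WT.

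Anxa1 (chromosome 19, 20447924 to 20465161, mm9, minus strand, protein coding) encodes lipocortin, a glucocorticoid-induced protein that restrains inflammation through formyl peptide receptors. It was at 6.06 FPKM in Cd73N WT, 85.4 in the Cd73N library labelled Ezh2-cKO, 0.40 in Cd73P WT and 2.95 in the Cd73P library labelled Ezh2-cKO. The Cd73N library labelled Ezh2-cKO thus stood above all others, and the highest level was 212 times the lowest, the widest span of the 8 members. In Cd73N the genotypes differed by a log2 ratio of 3.61 (SE 0.075), a 14.1-fold difference of FPKM, the fourth largest ratio of 12845 genes that reached 1 FPKM in either library. In Cd73P, which the choice did not use, the log2 ratio was 1.49 with an SE of 0.13, 48th from the top of 10681 genes, and FPKM differed 7.34-fold. The Cd73P levels were low: bounds of that width correspond to about 24.0 and 128 fragments, against 297 and 3855 in Cd73N. RNA of Cd73N cells left in the Cd73P fraction cannot be told apart from RNA of rods here, and its part was not tested. In the Cd73N library labelled Ezh2-cKO the FPKM of Anxa1 lay above its own upper bound of 76.9, and the midpoint of the bounds gave a log2 ratio of 3.55.

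Anxa2 (chromosome 9, 69301490 to 69339592, plus strand) encodes the partner of S100a10, with which it binds plasminogen activator at the cell surface. It was at 12.0 FPKM in Cd73N WT, 9.18 in the Cd73N library labelled Ezh2-cKO, 1.77 in Cd73P WT and 1.58 in the Cd73P library labelled Ezh2-cKO. The Cd73N values stood above the Cd73P values, and the genotypes had log2 ratios of -0.35 (SE 0.085) in Cd73N and -0.10 (SE 0.16) in Cd73P, neither past 1.5-fold. The bounds of the Cd73P libraries overlapped. An antisense transcript, Gm16144, and a miRNA lie within the span of the gene. The libraries are not described as stranded, so any of their reads that fall on Anxa2 exons could not be told apart. Whether they overlap Anxa2 exons was not checked. Anxa2 FPKM also lay above its own upper bound in both Cd73N libraries.

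Anxa5 (chromosome 3, 36347846 to 36374809, minus strand) encodes the phosphatidylserine binding protein used to stain dying cells. Its FPKM was 11.7 in Cd73N WT, 20.4 in Cd73N labelled Ezh2-cKO, 0.99 in Cd73P WT and 0.93 in Cd73P labelled Ezh2-cKO. The Cd73N levels lay far above both Cd73P levels, and the genotypes differed past 1.5-fold in Cd73N with a log2 ratio of 0.75 (SE 0.072) while the ratio in Cd73P was -0.04 (SE 0.14). Its FPKM in the Cd73N library labelled Ezh2-cKO was above its own upper bound of 19.6.

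Anxa6 (chromosome 11, 54792464 to 54846973, minus strand) encodes an annexin with a duplicated core that works in endosome and membrane traffic. It was at 11.9 FPKM in Cd73N WT, 22.1 in the Cd73N library labelled Ezh2-cKO, 2.01 in Cd73P WT and 3.66 in the Cd73P library labelled Ezh2-cKO. It was higher in the library labelled Ezh2-cKO of both fractions past 1.5-fold, with log2 ratios of 0.84 (SE 0.053) in Cd73N and 0.63 (SE 0.088) in Cd73P, and the difference between these ratios was 0.21 with an SE of 0.10. FPKM of Anxa6 in Cd73P was 16.9% of that in Cd73N in WT and 16.6% in the libraries labelled Ezh2-cKO.

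Anxa4 (chromosome 6, 86686834 to 86743578, minus strand) encodes an annexin of epithelia that assembles into lattices on membranes. It was at 1.38 FPKM in Cd73N WT, 5.11 in the Cd73N library labelled Ezh2-cKO, 0.47 in Cd73P WT and 0.71 in the Cd73P library labelled Ezh2-cKO. Of the 8 members it came next to Anxa1 in Cd73N, where its FPKM differed 3.71-fold between genotypes (log2 ratio 1.36, SE 0.11). In Cd73P its bounds overlapped between genotypes and its log2 ratio was 0.22.

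Anxa3 (chromosome 5, 97222404 to 97274987, plus strand) encodes an annexin known from myeloid cells. Its FPKM was 2.77 in Cd73N WT, 2.72 in Cd73N labelled Ezh2-cKO, 0.55 in Cd73P WT and 0.23 in Cd73P labelled Ezh2-cKO. The Cd73N levels differed by less than their counting error, with a log2 ratio of -0.02 (SE 0.13) whose sign changed under both scalings of the libraries, while in Cd73P the ratio was -0.33 (SE 0.11), FPKM being 2.42-fold lower under the label Ezh2-cKO with bounds that did not overlap. With a pseudocount of 0.1 the Cd73P ratio of Anxa3 was -0.99, past 1.5-fold. The Cd73P values stand for few fragments, about 28.6 and 18.4.

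Anxa7 and Anxa11 carry long N-terminal tails. Anxa7 (chromosome 14, 21274483 to 21299355, minus strand), which encodes synexin, a membrane fusion protein that binds sorcin, had an FPKM of 7.83 in Cd73N WT, 11.7 in Cd73N labelled Ezh2-cKO, 9.98 in Cd73P WT and 14.1 in Cd73P labelled Ezh2-cKO. It was the member with the highest level in both Cd73P libraries, and its levels spanned 1.797-fold, the narrowest of the 8 members. The genotype ratios of Anxa7 were 0.52 (SE 0.063) in Cd73N and 0.46 (SE 0.060) in Cd73P, both below the threshold as deposited, and the Cd73N ratio passed it under median scaling (0.60) and under sum scaling (0.66). Anxa11 (chromosome 14, 26661641 to 26706290, plus strand), whose product joins RNA granules to lysosomes, had an FPKM of 1.57, 3.32, 0.27 and 0.25 in the same order. Its genotype ratio was 0.75 (SE 0.10) in Cd73N and -0.02 (SE 0.076) in Cd73P.

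**Figure D2:**
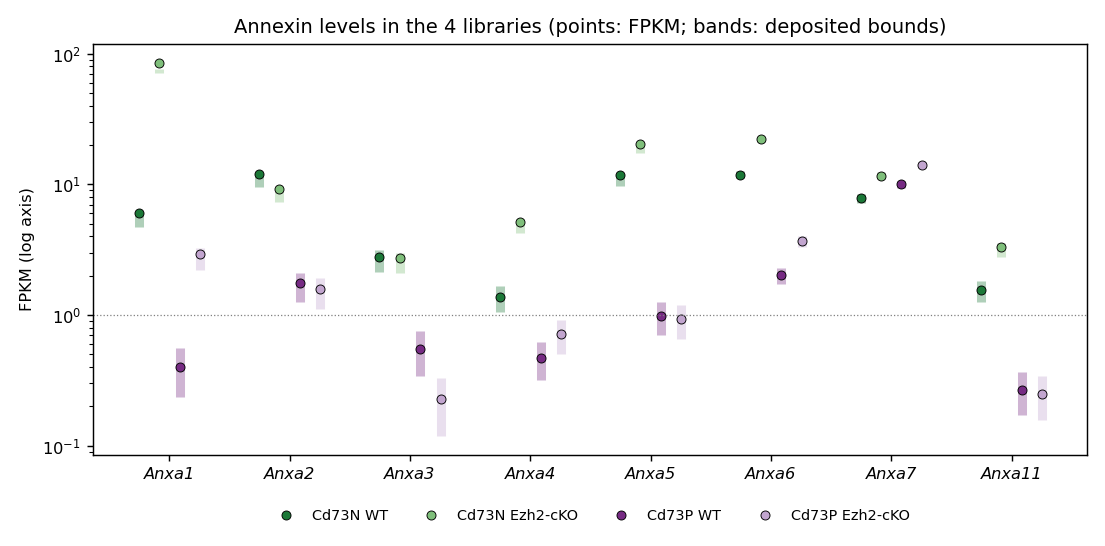
Points give the FPKM of each annexin in each of the 4 libraries on a log axis, and bands give the deposited bounds, which the point lies above for Anxa1, Anxa2 and Anxa5 in Cd73N. The dotted line marks 1 FPKM, and Anxa7 is the member whose Cd73P points lie above its Cd73N point of the same genotype.

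The order of the members by FPKM differed between libraries. In Cd73N WT the first were Anxa2, Anxa6 and Anxa5, whose neighbours within these 3 did not differ by more than 2 counting SE, and then Anxa7, Anxa1, Anxa3, Anxa11 and Anxa4, of which the last pair did not differ either. In the Cd73N library labelled Ezh2-cKO the order was Anxa1, Anxa6, Anxa5, Anxa7, Anxa2, Anxa4, Anxa11 and Anxa3, and every neighbour differed by more than 2 counting SE. In Cd73P WT it was Anxa7, Anxa6, Anxa2, Anxa5, Anxa3, Anxa4, Anxa1 and Anxa11, where Anxa6 and Anxa2 did not differ beyond that error and neither did neighbours from Anxa3 to Anxa11. In the Cd73P library labelled Ezh2-cKO, Anxa1 moved from the seventh to the third place, after Anxa7 and Anxa6.

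To see how the family differed between genotypes in Cd73N, members past 1.5-fold were counted. In the library labelled Ezh2-cKO 5 of 8 members were higher (Anxa1, Anxa4, Anxa5, Anxa6 and Anxa11) and 0 were lower. Over all genes compared, 7.18% were higher and 1.71% were lower, and over genes that reached 1 FPKM in either library, as all 8 members did, the shares were 11.6% and 2.86%. The median log2 ratio was 0.75 over the members, from -0.35 for Anxa2 to 3.61 for Anxa1, against -0.04 over the 12845 genes with that FPKM. Anxa1 belongs to these counts through the choice of the family, and the other 7 members were listed with results known. With a 2-fold threshold 2 members were higher, Anxa1 and Anxa4.

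In Cd73P 2 of 8 members were higher in the library labelled Ezh2-cKO, Anxa1 and Anxa6, and 0 were lower. Here 2.26% of all genes were higher and 2.39% were lower, or 4.32% and 4.54% of genes that reached 1 FPKM in either library, as 4 members did. The median log2 ratio of the members was 0.10, and over those 4 it was 0.54, against -0.04 over 10681 genes. With a pseudocount of 0.1 the same 2 members were higher and Anxa3 was lower (-0.99). With a pseudocount of 5 none of the members was past 1.5-fold, Anxa1 standing at a log2 ratio of 0.56 and Anxa6 at 0.30.

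**Figure D3:**
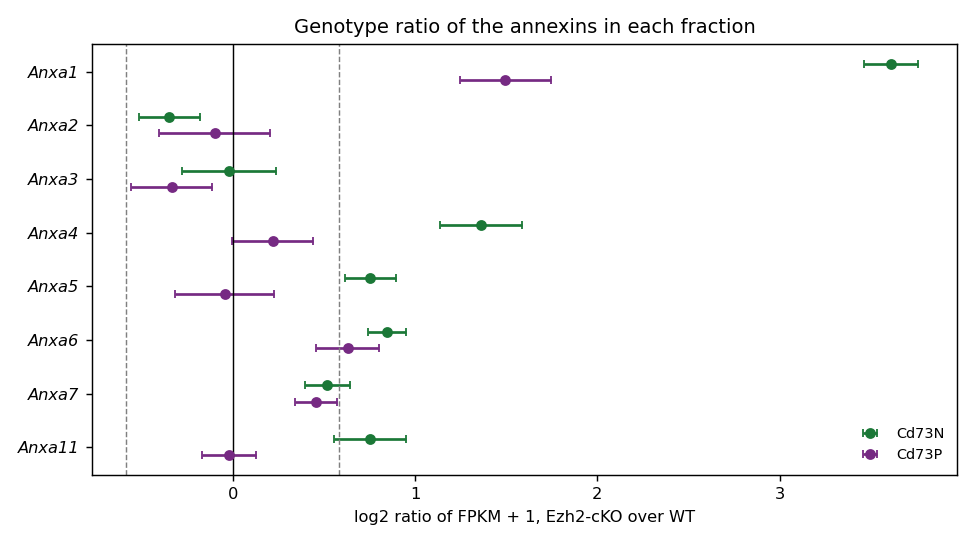
Points give the log2 ratio of FPKM + 1 of Ezh2-cKO over WT for each annexin in Cd73N and Cd73P, bars give the 95% counting interval and dashed lines mark 1.5-fold. Anxa1 stands at 3.61 and 1.49, whereas Anxa4, Anxa5 and Anxa11 are past the line in Cd73N alone. In Cd73P, Anxa4, Anxa5 and Anxa11 were below 1 FPKM in both libraries, where this scale lowers ratios.

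The difference of the genotype ratio between fractions was then taken as the Cd73N log2 ratio minus that of Cd73P. It was 2.12 with a counting SE of 0.15 for Anxa1, 1.14 (SE 0.16) for Anxa4, 0.80 (SE 0.16) for Anxa5 and 0.77 (SE 0.13) for Anxa11. The Anxa1 value contains the Cd73N ratio by which the family was chosen, so its lead was partly built in. For Anxa2, Anxa3, Anxa6 and Anxa7 the difference lay between -0.25 and 0.31. Anxa3, Anxa4, Anxa5 and Anxa11 were below 1 FPKM in both Cd73P libraries, where the FPKM + 1 scale lowers ratios. The order depended on the pseudocount. With 0.1 in place of 1, the difference was 1.19 for Anxa1, 1.31 for Anxa4, 1.11 for Anxa11, 0.96 for Anxa3 and 0.88 for Anxa5, so that Anxa1 no longer led. With 5 it was 2.47 for Anxa1, 0.60 for Anxa4, 0.62 for Anxa5 and 0.35 for Anxa11. In FPKM without the log scale, Anxa1 differed between genotypes by 79.3 in Cd73N and by 2.55 in Cd73P, while Anxa7 differed by 3.82 and 4.09, nearly the same amount in each fraction. These differences could not be tested with 1 library per group.

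Which fraction held more RNA of the family was asked next, separately for WT and for the libraries labelled Ezh2-cKO. In WT 7 of 8 members were higher in Cd73N past 1.5-fold and 0 were lower, where 27.9% of all genes were higher and 9.07% lower. Over genes that reached 1 FPKM in either library these shares were 45.9% and 15.4%. With a pseudocount of 5, 4 members were higher and the median of the members was 0.76 in place of 1.69. The log2 ratio of Cd73N over Cd73P in WT was 2.68 (SE 0.12) for Anxa5, 2.33 (SE 0.11) for Anxa1, 2.23 (SE 0.12) for Anxa2 and 2.095 (SE 0.079) for Anxa6. It was 1.29 for Anxa3, 1.02 for Anxa11 and 0.69 for Anxa4. Anxa7 was the exception with a ratio of -0.31 (SE 0.066), and was lower in Cd73N past 1.5-fold under median-ratio scaling of the libraries (-0.60) or scaling to equal FPKM sums (-0.71). In a sorted fraction, fewer cells of a type and less RNA per cell cannot be told apart.

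In the libraries labelled Ezh2-cKO the same 7 members were higher in Cd73N and 0 were lower, beside 29.1% and 8.4% of all genes and 45.6% and 13.8% of genes that reached 1 FPKM in either library. The ratio of Anxa1 was 4.45 (SE 0.098), a 29.0-fold difference of FPKM, and that of Anxa5 was 3.48 (SE 0.11). Anxa6 was at 2.31, Anxa2 at 1.98, Anxa4 at 1.84, Anxa11 at 1.79 and Anxa3 at 1.60, while Anxa7 was at -0.25 (SE 0.056). The median over the members was 1.69 in WT and 1.91 in the libraries labelled Ezh2-cKO, against 0.47 and 0.46 over genes with that FPKM. As a share of the Cd73N level, the Cd73P level of Anxa1 was 6.63% in WT and 3.45% in the libraries labelled Ezh2-cKO, that of Anxa5 8.44% and 4.54% and that of Anxa2 14.7% and 17.2%, whereas Anxa7 was at 127% and 121%. The WT and Ezh2-cKO comparisons use the same libraries as the genotype comparisons above and are no separate evidence.

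**Figure D4:**
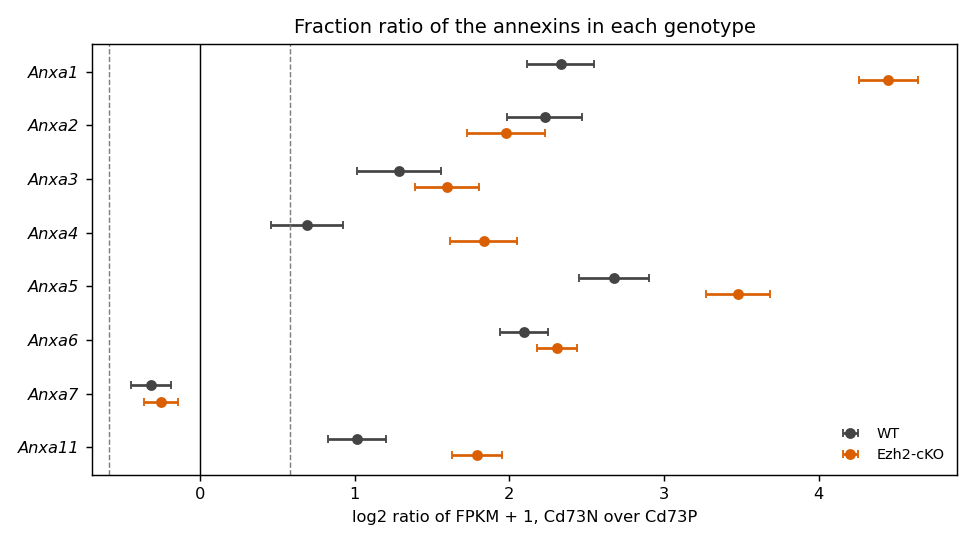
Points give the log2 ratio of FPKM + 1 of Cd73N over Cd73P for each annexin in WT and in the libraries labelled Ezh2-cKO, bars give the 95% counting interval and dashed lines mark 1.5-fold. The points of 7 members lie to the right of the line in both genotypes, and those of Anxa7 lie at -0.31 and -0.25.

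The remaining annexin genes, Anxa8, Anxa9, Anxa10 and Anxa13, were below 1 FPKM in all 4 libraries. Anxa8 was listed at 0 in each, and the highest value was 0.59 FPKM for Anxa9 in the Cd73N library labelled Ezh2-cKO, where it was 0.25 FPKM in Cd73N WT. None of them was past 1.5-fold in any comparison.

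Genes that act with annexins were examined as a list of 17 binding partners and related genes. In Cd73N 2 of the 17 were higher in the library labelled Ezh2-cKO past 1.5-fold, and 0 were lower, beside 7.18% and 1.71% of all genes. Both were among the 11 listed genes that reached 1 FPKM in either library, beside 11.6% higher over all genes with that FPKM. A count of 2 is too small to set the list apart. S100a10, the partner of Anxa2, had 11.1 FPKM in WT and 22.2 FPKM under the label Ezh2-cKO, with a log2 ratio of 0.94 (SE 0.10) beside the ratio of -0.35 of Anxa2 itself. Pla2g4a, a cytosolic phospholipase whose activity Anxa1 is known to restrain, was at 0.47 and 1.65 FPKM, a log2 ratio of 0.85 (SE 0.092). S100a11, the S100 partner of Anxa1, was at 34.2 and 32.4 FPKM, with a ratio of -0.07 (SE 0.070), and S100a6, a partner of Anxa11, was at 7.06 and 9.78 FPKM with a ratio of 0.42 (SE 0.12). The formyl peptide receptor genes, named for their known link to Anxa1 although not past 1.5-fold, were low: Fpr1 reached 0.15 FPKM and Fpr2 0.26 FPKM at most, both in the Cd73N library labelled Ezh2-cKO. The median log2 ratio in Cd73N was 0.17 over the 11 listed genes with FPKM of at least 1.

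In Cd73P 0 of the 17 genes were past 1.5-fold in either direction between genotypes. Over all genes 2.26% were higher and 2.39% lower, shares at which a count of 0 among 17 genes says little. The median log2 ratio was 0.00070 over the 7 listed genes with FPKM of at least 1. S100a10 was at 1.36 FPKM in both Cd73P libraries. Between fractions 9 of 17 were higher in Cd73N in WT and 10 of 17 in the libraries labelled Ezh2-cKO, with 0 lower in each. Over all genes 27.9% and 29.1% were higher. Of the 17 genes, 10 (WT) and 11 (labelled Ezh2-cKO) reached 1 FPKM in either library, and over all genes with that FPKM the shares were 45.9% and 45.6%. The counts include Dysf in both genotypes and Plau under the label Ezh2-cKO, which stayed below 1 FPKM. Plat, which encodes tissue plasminogen activator, was at 14.7 FPKM in Cd73N WT and 0.36 in Cd73P WT, a log2 ratio of 3.53 (SE 0.071), and Sri, which encodes sorcin, at 11.2 and 1.42 FPKM. Pdcd6, whose calcium-binding product binds Anxa7 and Anxa11, was at 20.4 FPKM in Cd73N WT and 12.3 in Cd73P WT.

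Marker lists of some of the cell types that the fractions could hold were set beside the members. No list covered amacrine, horizontal, ganglion or cone cells or astrocytes. In Cd73N all 14 Müller glia markers were higher under the label Ezh2-cKO, their FPKM summing to 1352 in WT and 6335 in that library. Their log2 ratios had a median of 2.102 and ran from 1.25 to 3.16, and 0 of the 14 reached the ratio of Anxa1. Anxa1 was chosen for its large Cd73N ratio, so counts of markers above it in Cd73N were largely set by that choice. In Cd73P 10 of 14 were higher, with sums of 279 and 461 FPKM. Car2, named after its values were seen, held 162.5 and 215.4 FPKM of these sums and was not past 1.5-fold. On the FPKM + 1 scale, 2 of 12 with FPKM of at least 1 were above Anxa1. These were Rlbp1 (6.54 and 25.7 FPKM) and Dkk3 (5.32 and 28.8 FPKM), named after their values were seen. Anxa1 was at 0.40 and 2.95 FPKM there, a level at which that scale lowers the ratio more. Among 13 immediate early response genes, which cell dissociation and activity are known to induce, 11 were higher in Cd73N, with sums of 352 and 1601 FPKM, a median log2 ratio of 2.096 and 1 gene above Anxa1, Fosb at 3.71, which is named after its value was seen. Zfp36 (3.63 and 55.6 FPKM) was level with Anxa1 at 3.61, so this count can change with the pseudocount. In Cd73P 3 of these 13 were higher and 2 were lower, with sums of 315 and 326 FPKM. The part of Müller glia and of immediate early genes in the annexin values was not tested.

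The other lists had medians nearer to 0 in Cd73N. Those furthest from 0 among them were 1.03 for neutrophil markers, from 2 genes, -0.87 for rod markers and -0.84 for bipolar markers. Of 14 microglia or macrophage markers 5 were higher and 0 lower, with sums of 145 and 218 FPKM and a median log2 ratio of 0.51, and in Cd73P 0 were past 1.5-fold with sums of 33.8 and 41.8 FPKM. Of 9 neutrophil markers 3 were higher in Cd73N, from a sum of 4.01 to 10.9 FPKM, with Mpo and Elane at 0, and the sums were 0.44 and 1.14 FPKM in Cd73P, where 5 of the 9 were at 0 in both libraries. Vascular endothelium markers summed to 67.0 and 135 FPKM in Cd73N, with 2 of 11 higher and 1 lower and a median log2 ratio of 0.03, and to 11.2 and 8.99 FPKM in Cd73P, with 1 of 11 higher and 1 lower. The higher endothelial genes in Cd73N, named after their values were seen, were Kdr (22.6 and 86.2 FPKM) and Flt1 (2.86 and 16.2 FPKM), and Esam was lower (23.9 and 13.3 FPKM). Pericyte or smooth muscle markers summed to 269 and 305 FPKM in Cd73N with 0 of 10 past 1.5-fold, and to 9.41 and 5.55 FPKM in Cd73P with 1 lower. Retinal pigment epithelium markers summed to 14.0 and 14.3 FPKM in Cd73N with 0 of 11 past 1.5-fold, and to 65.2 and 53.0 FPKM in Cd73P with 3 lower. Bipolar markers were lower, 7 of 12 in Cd73N with sums of 2726 and 1491 FPKM and 10 of 12 in Cd73P with sums of 199 and 67.4 FPKM. Rod markers summed to 1065 and 984 FPKM in Cd73N, with 6 of 11 lower, and to 15156 and 20623 FPKM in Cd73P, with 2 of 10 higher and 0 lower. The part of these cell types in the annexin values was not tested.

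**Figure D5:**
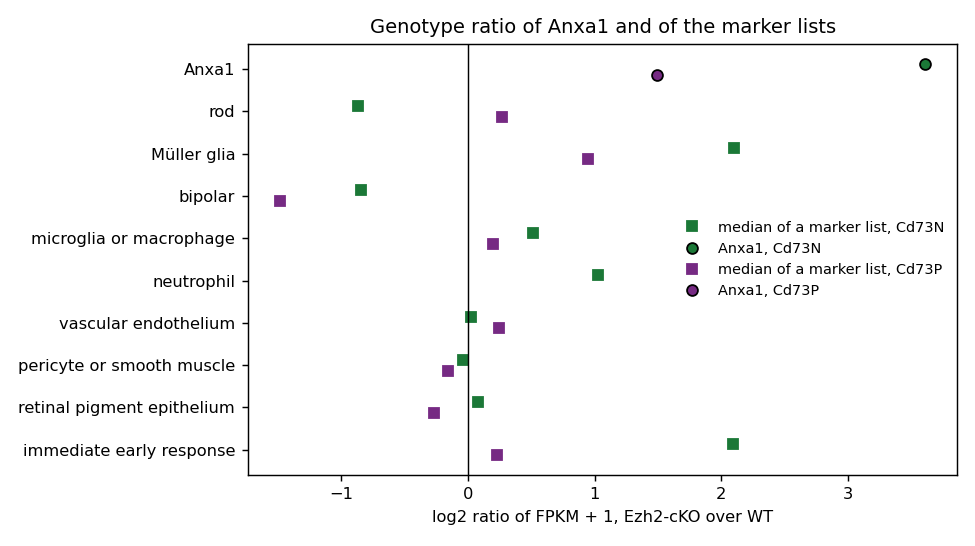
Squares give the median log2 ratio of FPKM + 1 of Ezh2-cKO over WT for 9 lists in Cd73N and Cd73P, over genes with FPKM of at least 1, and circles give Anxa1. The neutrophil list has no square in Cd73P, with 0 genes at that FPKM. In Cd73N its square rests on 2 genes and that of the retinal pigment epithelium on 3. Anxa1 lies to the right of every median, and the Müller glia and immediate early medians are at 2.102 and 2.096 in Cd73N. In Cd73N this place of Anxa1 was largely set by its choice for a large ratio there.

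Genes with a pattern like that of each member were named by the distance between centred log2(FPKM + 1) values over the 4 libraries, among 7600 genes that reached 10 FPKM. The nearest to Anxa1 were Il33 (distance 0.53), Aqp4 (0.58), Mt2 (0.62), Slc13a5 (0.68) and Cyr61 (0.69). Il33 was at 4.40, 55.8, 0.28 and 3.24 FPKM in Cd73N WT, Cd73N labelled Ezh2-cKO, Cd73P WT and Cd73P labelled Ezh2-cKO. Nearest to Anxa2 were Fam89b and Calm3, to Anxa3 Ctsz and Akt1, to Anxa4 Cntf and Sorbs2 and to Anxa5 Nlgn1 and Nkain1. Sepp1 and C1qa were nearest to Anxa6, Gpam and Cyp4f13 to Anxa7 and Mxra7 and Gaa to Anxa11. The nearest gene lay at a distance of 0.018 for Anxa2, against 0.53 for Anxa1. The likeness rests on 4 libraries.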

How the data were processed

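The authors aligned short single-end reads of poly(A) RNA to mm9 with TopHat2 2.0.8b, keeping reads with several hits up to a limit, and estimated FPKM by Cufflinks 2.1.1 (versions per the submitters' processing notes). The deposited tables hold FPKM, lower and upper FPKM bounds and a status for 23021 rows per library, without counts, so absolute depth is unknown. FPKM was not scaled between libraries. Between 23.8% and 26.6% of genes with FPKM of at least 1 lay above their own upper bound.

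Groups were taken from the sample titles. With Python 3.11.15 and pandas 2.3.3, values of 235 symbols listed more than once were added up, 727 small RNA symbols were left out, and genes without OK status in either library of a pair were left out of it. Ratios were taken as log2(FPKM + 1), and a gene was called past the study's 1.5-fold threshold. Counting SEs took the width of the deposited bounds as 4 SE. Starts had 1 added, after which 9786 of 20643 starts equalled GENCODE starts on NCBIM37, against 628 as listed. The counting step was tested on simulated data. All 8 members were named, listed partners past 1.5-fold could be named, and 5 (Anxa1) or 2 (others) genes nearest in pattern were named. The members and lists were chosen with earlier results of these data known. Ly6g had no row. Alternatives were pseudocounts of 0.1 and 5, median-ratio or FPKM-sum scaling, a 2-fold threshold, filters on low FPKM, a ratio without pseudocount, bounds that do not overlap and, chosen after seeing the data, the midpoint of the bounds.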

Additional observations from a re-analysis of the deposited data

Results flagged for a closer look

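For 2 members the genotype log2 ratio had opposite signs in the fractions. For Anxa5 it was 0.75 (Cd73N) and -0.04 (Cd73P), so the ratios differed by 0.80. For Anxa11 it was 0.75 and -0.02, so they differed by 0.77. The Cd73P ratios were smaller than their counting SEs of 0.14 and 0.076, and neither difference was tested, since no group had a replicate.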

How the results depend on the processing

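With 1 library per group no library could be left out, and no paired analysis was possible because the labels carry no replicate numbers and each group had 1 library. None of the ratios of members past 1.5-fold changed direction under the alternatives run. Of the counts and medians recomputed, 80 values stayed close to those reported and 20, given here, moved. Of the values of single members, 179 stayed within counting error and 74 moved, 24 of them with a pseudocount of 0.1 and 26 with 5. Scaling shifted the genotype ratios in Cd73N by 0.086 (median) and 0.15 (sum) and the fraction ratios in WT by -0.31 and -0.43, and gave 1 member lower in Cd73N than in Cd73P in WT (Anxa7) in each case, with a median of 1.46 there under sum scaling.

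A pseudocount of 0.1 gave 1 member lower in Cd73P between genotypes (Anxa3) and medians between fractions of 2.34 in WT and 2.90 in the libraries labelled Ezh2-cKO. A pseudocount of 5 gave a genotype median of 0.49 in Cd73N, 0 members higher in Cd73P, 4 members higher in Cd73N than in Cd73P in WT, and medians between fractions of 0.76 and 0.97. The 2-fold threshold gave 2 members higher in Cd73N and 1 in Cd73P. A minimum of 1 FPKM in 1 of the 2 libraries gave a genotype median of 0.54 in Cd73P. Without a pseudocount, over members with at least 1 FPKM in both libraries, 1 member was higher in Cd73P with a median of 0.49, and 2 (WT) and 3 (labelled Ezh2-cKO) were higher in Cd73N than in Cd73P, with medians of 2.56 and 2.57. This alternative changed the pseudocount and the members compared together. The causes of these changes were not tested.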
